A study of Mus musculus with 21 samples.

Results

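The FOS, JUN and EGR immediate early genes are followed here as 10 members, Fos, Fosb, Fosl2, Jun, Junb, Jund, Atf3, Egr1, Egr2 and Egr3, chosen by gene symbol from the 15945, 22274 and 16645 genes of 3 deposited tables of mouse RNA sequencing. All 10 were found in each table. The 21 libraries came from cells of WT mice, and the labels give neither strain nor age. One table covers bone marrow eosinophils (3 libraries) and granulocyte-macrophage progenitors (GMPs, 3 libraries), which give rise to granulocytes and monocytes. Another covers eosinophils given type 2 cytokines (T2, 3 libraries) and untreated, resting eosinophils (3 libraries). The last covers bone marrow-derived eosinophils (BMDEs), grown in culture, as 4 libraries from cells loaded with iron by ferric ammonium citrate (FAC, 10 µM), 3 from cells deprived of it by the chelator deferoxamine (DFO, 5 µM) and 2 from untreated controls. Per the labels all BMDEs had SCF and FLT3 ligand at 100 ng/mL each for 4 days and then IL-5 at 10 ng/mL. Iron treatment began on day 4, and cells were harvested for RNA on day 7. Each T2 label names GM-CSF and IL-4 plus a further interleukin, IL-33 for library 1, IL-34 for library 2 and IL-35 for library 3, and these libraries are kept as 1 group. The interleukin numbers run on with the library numbers, and whether the libraries truly differed in cytokine is not settled by the sources used here. How the cells other than BMDEs were isolated is not given in the labels, nor whether the libraries of a group came from separate mice or cultures. The p-values therefore measure the spread between these libraries, which may be technical.

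Immediate early genes are switched on within minutes of a signal, without new protein synthesis, and their RNAs are short-lived. FOS and JUN proteins pair through leucine zippers to form the transcription factor AP-1, ATF3 is a related zipper protein induced by stress and cytokines, and EGR proteins are zinc-finger factors that their own targets Nab1 and Nab2 hold in check. In granulocytes and their progenitors AP-1 and EGR factors act in activation and in lineage choice, and opening a tissue, sorting and warming cells can induce the same genes. Levels are given as CPM, read counts relative to library size scaled with TMM factors, and compare libraries of 1 table. Levels of different genes are compared per length, as the authors' FPKM, fragments relative to gene length and library size.

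The upstream sequences of 5 members that carry the main results are shown because some of the best known response elements of this family lie there. RefSeq's promoter table for GRCm38.p6 had an entry for 8 of the 10 members, and not for Egr1 and Egr3. The 250 bases before the listed start are printed 5′ to 3′ on the gene's strand. Egr2 has 5 listed starts, and 1 of them is shown. Capitals mark matches, on either strand, to the core TGACG of the cAMP response element, to TGACATCA, to the TATA box TATAAA and to the CArG box, the site of serum response factor.
Fos (chr12:85473640-85473889, + strand): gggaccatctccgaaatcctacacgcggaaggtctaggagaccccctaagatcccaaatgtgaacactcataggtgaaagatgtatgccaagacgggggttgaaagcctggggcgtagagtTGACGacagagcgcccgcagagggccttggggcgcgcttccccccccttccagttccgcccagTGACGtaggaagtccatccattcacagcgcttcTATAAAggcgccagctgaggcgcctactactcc
Jun (chr4:95052223-95052472, - strand): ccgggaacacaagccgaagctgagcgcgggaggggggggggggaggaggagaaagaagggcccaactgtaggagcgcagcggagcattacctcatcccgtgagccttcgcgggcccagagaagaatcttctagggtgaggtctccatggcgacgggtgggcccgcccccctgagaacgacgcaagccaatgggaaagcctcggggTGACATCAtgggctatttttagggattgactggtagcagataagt
Junb (chr8:84978749-84978998, - strand): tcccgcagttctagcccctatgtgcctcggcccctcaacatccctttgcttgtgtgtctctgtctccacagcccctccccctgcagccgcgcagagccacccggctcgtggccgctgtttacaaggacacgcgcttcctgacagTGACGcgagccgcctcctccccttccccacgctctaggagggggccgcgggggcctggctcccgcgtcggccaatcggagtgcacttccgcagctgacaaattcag
Atf3 (chr1:191183334-191183583, - strand): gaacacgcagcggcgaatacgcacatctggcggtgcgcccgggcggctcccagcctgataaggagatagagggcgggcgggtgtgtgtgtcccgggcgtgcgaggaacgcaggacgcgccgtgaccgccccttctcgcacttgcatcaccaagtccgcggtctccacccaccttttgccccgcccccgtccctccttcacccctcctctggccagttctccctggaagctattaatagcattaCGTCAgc
Egr2 (chr10:67537619-67537868, + strand): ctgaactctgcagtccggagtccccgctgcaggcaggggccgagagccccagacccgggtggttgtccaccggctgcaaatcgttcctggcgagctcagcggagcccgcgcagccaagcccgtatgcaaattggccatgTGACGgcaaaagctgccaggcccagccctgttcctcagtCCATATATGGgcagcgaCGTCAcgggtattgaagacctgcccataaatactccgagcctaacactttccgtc
Fos held 2 copies of TGACG and 1 of TATAAA, and Junb held 1 copy of TGACG. Jun held TGACATCA at 45 to 38 bases before its start. The Atf3 window held TGACG on its other strand, next to the start. Egr2 held 1 CArG box at 72 to 63 bases before its start and TGACG once on each strand. Of all 32851 windows of this length in the table, 17.8% held TGACG, 2.93% TGACATCA, 12.4% TATAAA and 1.47% a CArG box. Other letters searched were the full cAMP response element TGACGTCA (1.55% of windows, and each match also holds TGACG), the AP-1 site TGANTCA (6.75%), the EGR site GCGTGGGCG (0.54%) and the STAT site TTCNNNGAA (7.02%). None of these 4 was in the 5 windows shown. No rule fixed which Egr2 window is shown, and the one shown holds matches. Of the other listed starts of Egr2, the first had no match to any letters searched, another had a CArG box of other letters and the rest overlap the window shown. The windows of Fosl2 and Jund had no match, and that of Fosb held TGACG once.

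Total counts ran from 25857382 to 28992668 per library in the table of marrow cells, from 16073573 to 18995878 in that of T2 and resting eosinophils and from 16809789 to 17991878 in that of BMDEs. Of 8 eosinophil markers, among them Prg2, Epx, Ccr3 and Il5ra, none was at 0 in any library, GMPs included, so detection alone separates no group. They summed to 17020 to 29930 CPM in bone marrow eosinophils, against 117.7 to 262.9 CPM in GMPs. The 8 GMP markers summed to 36600 to 62260 CPM in bone marrow eosinophils, against 52370 to 62320 CPM in GMPs. The 10 neutrophil markers summed to 32720, 71400 and 197300 CPM in bone marrow eosinophil libraries 1 to 3. Eosinophil markers summed to less in each of these libraries, 18710, 17020 and 29930 CPM. In GMPs the neutrophil markers summed to 65.56 to 96.9 CPM. The libraries labelled eosinophils thus also carry RNA of GMP and neutrophil genes. Bone marrow eosinophil library 3 and FAC library 6 stand apart. Their deposited FPKM summed to 1199569 and 828965, against 685500 and 832155 in the other bone marrow eosinophil libraries and 655543 to 704812 in the other FAC libraries. Calls of members that change without one of these libraries are given with and without it, and counts from the gene lists only in part. Where a marker list or a library moves with a member, its part in the result was not tested, and in such mixed RNA fewer cells of a type and less RNA per cell cannot be told apart.

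In GRCm38, with GENCODE M21 genes and the strand in brackets, the FOS genes lie as Fos at chr12:85473890-85477273 (+), Fosb at chr7:19302696-19310051 (-) and Fosl2 at chr5:32135801-32157842 (+). The JUN genes are Jun at chr4:95049034-95052222 (-), Junb at chr8:84974484-84978718 (-) and Jund at chr8:70698949-70700616 (+). Atf3 at chr1:191170296-191218039 (-) stands alone, and the EGR genes are Egr1 at chr18:34859823-34864984 (+), Egr2 at chr10:67535475-67542188 (+) and Egr3 at chr14:70077203-70082614 (+). All values are per gene. Jun overlaps Junos and Atf3 overlaps Gm24748, each on the opposite strand, as Junb overlaps Prdx2 and Jund overlaps Gm11175. The strand setting of the counting is not given, so reads cannot be told apart in these overlaps. Junos, Gm24748 and Gm11175 have no level of their own in these data.

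**Figure D1:**
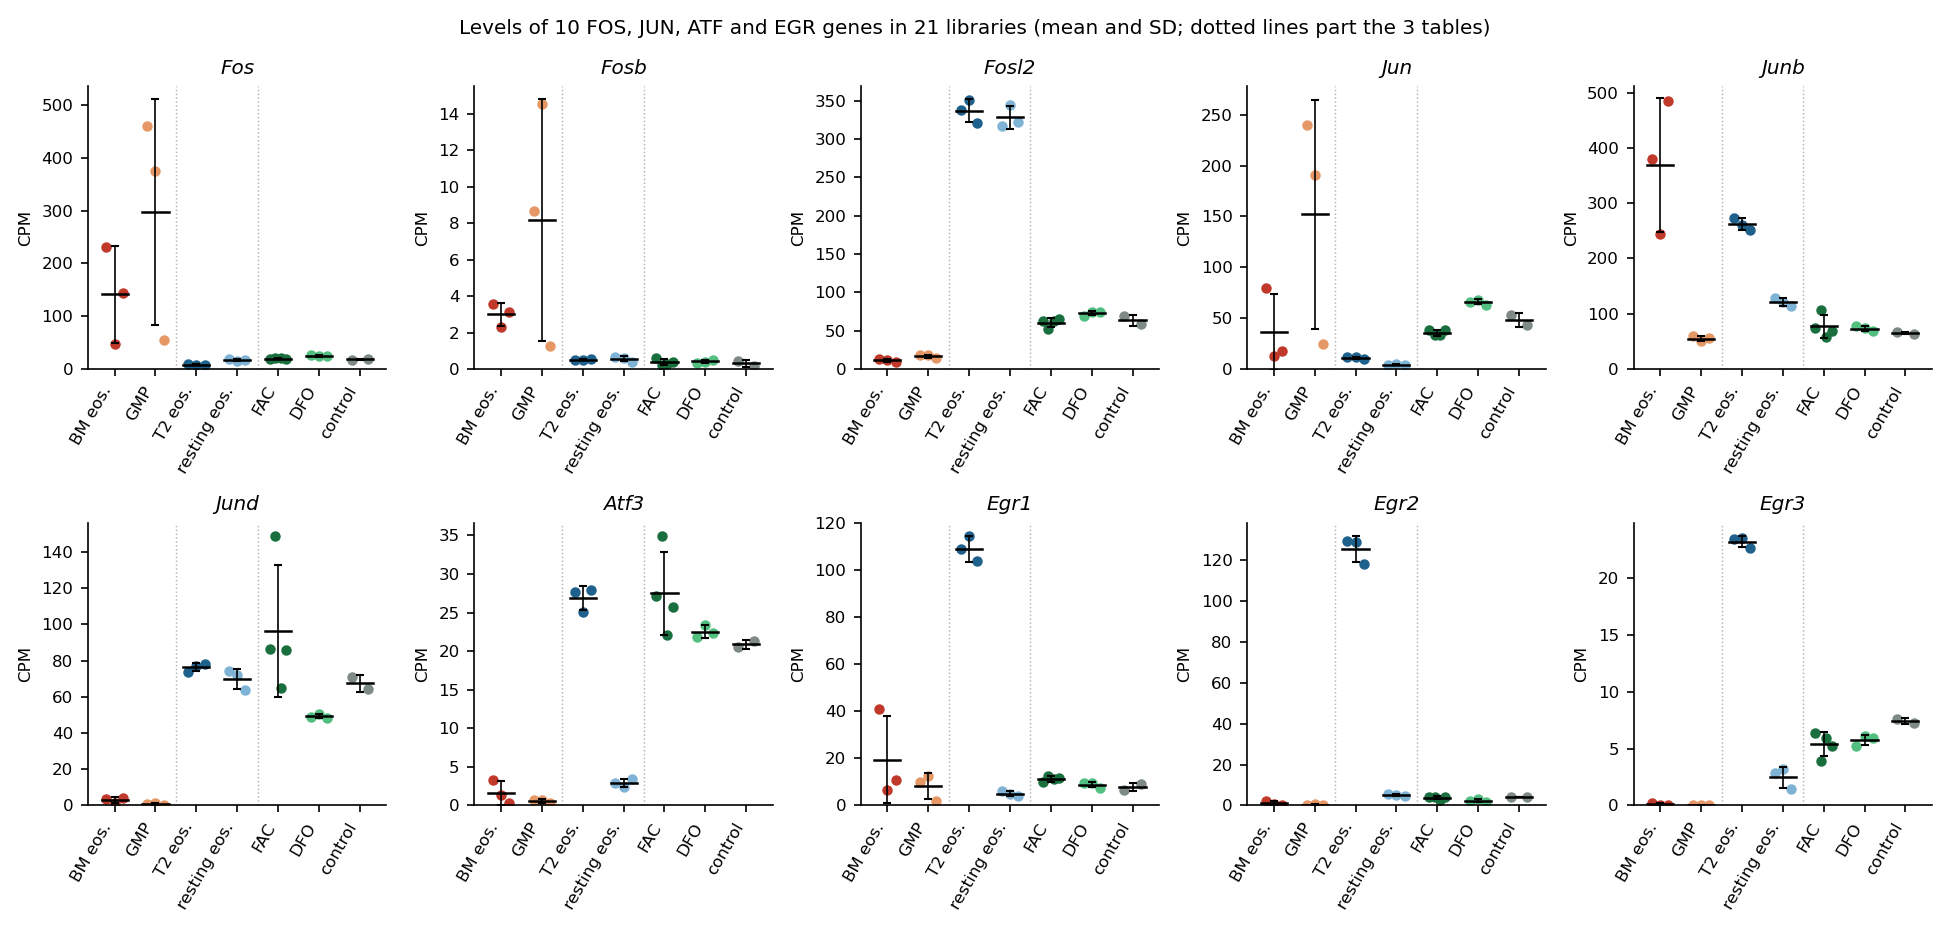
CPM of each member in each of the 21 libraries, with each group's mean (bar) and SD (whisker); dotted lines part the 3 tables, which were scaled separately. Egr1, Egr2 and Egr3 were highest in the T2 libraries, at 103.6 to 114.4, 117.7 to 129.0 and 22.6 to 23.53 CPM.

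Setting T2 against resting eosinophils addresses the response of these genes to cytokines of allergic inflammation. The dose and length of the T2 treatment are not given here, so an early and a late response cannot be told apart. The EGR genes and Atf3 rose most, Jun and Junb rose less, and Fos fell. Fosl2 and Jund did not pass the test. Of 9 members tested, 6 were higher and 1 lower in T2 eosinophils, with a median log2 fold change of 1.43. Of all 11345 genes tested, 76.1% were called in this comparison, 38.2% higher and 37.9% lower, with a median of -0.01, so a call alone sets no gene apart here. T2 and resting libraries were apart for 7 of the 9 members and for 77.7% of all genes.

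The EGR factors were at low levels at rest. Egr1, the founding member and a sensor of growth factor signals, had 108.7, 114.4 and 103.6 CPM in T2 eosinophils, against 6.01, 4.801 and 3.875 CPM in resting eosinophils. Egr2, a factor of myeloid and lymphoid activation, had 129.0, 128.7 and 117.7 CPM in T2 eosinophils, against 5.785, 5.209 and 4.453 CPM at rest. Egr3, which resembles Egr2 in its targets, had 23.38, 23.53 and 22.6 CPM with T2 cytokines, against 2.864, 3.167 and 1.446 CPM at rest. In each of the 3 genes every T2 library lay far above every resting library. The log2 fold changes were 4.47 for Egr1 (SE 0.097, adjusted p 9.77e-16), 4.60 for Egr2 (SE 0.083, adjusted p 1.27e-16) and 3.20 for Egr3 (SE 0.158, adjusted p 2.65e-11), in edgeR's quasi-likelihood test with Benjamini-Hochberg adjustment over all genes tested. The 3 T2 libraries stayed within 103.6 to 114.4 CPM for Egr1 and 117.7 to 129.0 CPM for Egr2. By deposited FPKM the 3 EGR genes together stood at 74.94 to 79.64 in T2 eosinophils, against 3.466 to 5.009 at rest. Egr2 made up 51.88% to 53.84% of that sum with T2 cytokines and 40.01% to 46.62% at rest, and Egr3 7.551% to 8.238% with T2 cytokines and 15.38% to 25.72% at rest. Both EGR co-repressors rose as well. Nab1 was at 264.4 ± 18.31 CPM in T2 eosinophils and 47.03 ± 0.7024 CPM at rest, and Nab2 at 51.47 ± 3.869 CPM in T2 eosinophils and 10.83 ± 0.6612 CPM at rest (SD, n = 3 each). Their log2 fold changes were 2.49 and 2.25.

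Atf3, which represses inflammatory genes in macrophages and can pair with JUN proteins, had 27.61, 25.11 and 27.97 CPM in T2 eosinophils, against 2.921, 2.4 and 3.47 CPM in resting eosinophils. Its log2 fold change was 3.20 (SE 0.119, adjusted p 6.88e-13), and the groups did not come near each other. Thus 4 of the 6 members that rose did so by more than 3 on the log2 scale.

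Among the JUN genes the 2 that respond to signals rose. Junb, the JUN protein most tied to cytokine signals in myeloid cells, had 273.5, 259.8 and 251.6 CPM in T2 eosinophils, against 128.7, 121.9 and 113.7 CPM at rest. Jun, the strongest activator of the family, had 12.03, 11.37 and 10.12 CPM in T2 eosinophils, against 3.763, 4.494 and 4.164 CPM at rest. All T2 libraries were above all resting libraries for both genes. The log2 fold changes were 1.11 for Junb (SE 0.053, adjusted p 1.75e-11) and 1.43 for Jun (SE 0.132, adjusted p 6.89e-08). Jund, the JUN gene expressed most steadily in unstimulated cells, had 73.94, 77.16 and 78.25 CPM in T2 eosinophils and 74.14, 72.22 and 63.55 CPM at rest, which overlap (log2 fold change 0.13, SE 0.062, adjusted p 0.0727). Jund passed in 3 of 11 alternatives, with values of 0.01 to 0.18 and adjusted p-values of 0.00552 to 0.876 over all of them. Junb held most of the JUN family's FPKM in both states, 73.51% to 75.86% with T2 cytokines and 60.1% to 61.45% at rest, and Jun held 1.678% to 1.892% with T2 cytokines and 1.01% to 1.277% at rest.

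Fos went the other way. It had 8.774, 7.844 and 7.831 CPM in T2 eosinophils, against 18.48, 15.99 and 17.41 CPM at rest, and all T2 libraries were below all resting ones. Its log2 fold change was -1.08 (SE 0.1, adjusted p 6.51e-08). Fosl2, the FOS-related antigen FRA-2, had 338.0, 351.5 and 321.1 CPM in T2 eosinophils and 317.0, 345.1 and 322.5 CPM at rest, and the groups overlap (0.04, adjusted p 0.488). With upper-quartile factors, which moved the median of all genes from -0.01 to -0.13, its value was -0.08. Fosb, a close homologue of Fos, had 7 to 12 reads in each of these 6 libraries and was not tested. By FPKM Fosl2 made up 92.32% to 93.32% of the FOS family in T2 eosinophils and 84.41% to 87.2% at rest, and Fos 6.457% to 7.432% with T2 cytokines and 12.53% to 15.26% at rest. Fosl1, the FOS relative that is not a member, was at 2.703 ± 0.7028 CPM in T2 eosinophils and 0.01928 ± 0.03339 CPM at rest (SD, n = 3 each), so that its fitted fold change rests on almost no reads at rest.

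**Figure D2:**
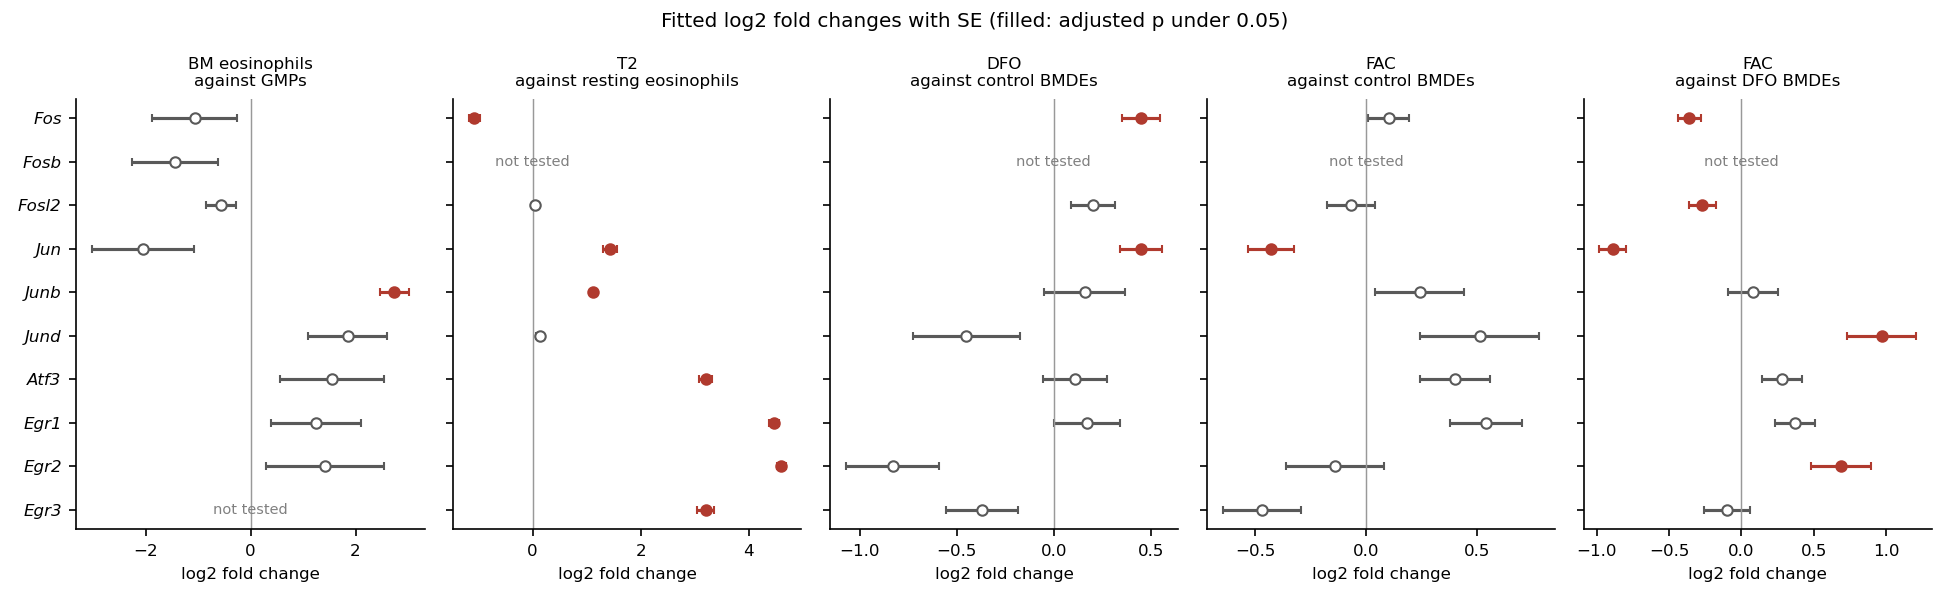
Fitted log2 fold changes of the members in 5 comparisons, with SE; filled points passed an adjusted p of 0.05, and a positive value means higher in the first-named group. Scales differ between panels. T2 against resting eosinophils had 7 filled points, from -1.08 for Fos to 4.60 for Egr2.

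Other genes of the pathway moved both ways with T2 cytokines. Of 12 AP-1 and MAF partners tested, 9 were higher and 0 lower (median log2 fold change 1.37), and with length and GC offsets 8 were higher and 1 lower. Fosl1 (6.74), Batf3 (3.43), Maf (1.92) and Mafg (1.83) changed most. Of 35 other immediate early genes tested, 23 were higher and 10 lower (median 0.64). Phlda1 (5.83), Nfkbiz (5.27), Nr4a1 (5.00) and Hbegf (4.52) rose most, and Ier5l (-2.48), Rgs2 (-1.27), Sik1 (-1.02) and Rhob (-0.91) fell most. Nr4a1, an orphan nuclear receptor, was at 65.8 ± 2.64 CPM in T2 eosinophils and 2.037 ± 0.2839 CPM at rest. Of 23 upstream kinases and factors, 11 were higher and 9 lower (median 0.00). Map3k8, a kinase that feeds ERK signalling, rose by 4.70 and Elk1, a partner of serum response factor at CArG boxes, by 1.87. Map2k4 rose by 1.12 and Mapk8 by 0.95, while Map2k6 (-5.74), Rps6ka5 (-2.73), Elk3 (-1.17) and Mrtfa (-0.95) fell. Heat shock genes, which respond to stress and handling, were higher in 10 of 12 and lower in 0, with Hspa1b (3.79), Hspa1a (3.27), Hsp90aa1 (1.78) and Hsp90ab1 (1.64) the most changed. Hspa1a and Hspa1b are near-identical copies whose reads cannot always be told apart. Their list summed to 2509 to 2716 CPM in T2 eosinophils and 1035 to 1074 CPM at rest. The 8 eosinophil markers summed to 4410 to 4527 CPM with T2 cytokines and 6863 to 7186 CPM at rest, and the 10 neutrophil markers to 775.4 to 810.7 CPM with T2 cytokines and 1959 to 2196 CPM at rest. The part of these shifts in the members' changes was not tested.

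Setting bone marrow eosinophils against GMPs compares the members between libraries so labelled, and by their markers the eosinophil libraries are mixed. Differences can therefore not be assigned to eosinophils alone. Junb was the only member of 9 tested to pass, and it was higher in bone marrow eosinophils. Of all 12214 genes tested, 19.8% were called, 13% higher and 6.78% lower. With length and GC offsets the split of all calls was 1508 higher and 1219 lower, against 1585 and 828 without them. Groups did not overlap for 3 of 9 members, Fosl2, Junb and Jund, and for 48.3% of all genes. The members' median log2 fold change was 1.25, against 0.01 over all genes, but their values ran from -2.05 to 2.74 and the libraries of 1 group spread widely. On simulated counts, 21% of genes changed by 2 on the log2 scale were called in this comparison. In that simulation all genes had the same relative spread and only a small part of them was changed. The share is therefore not the rate for these members, and a missed call is not taken as equal levels.

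Junb had 379.7, 243.7 and 484.2 CPM in bone marrow eosinophils, against 59.54, 50.05 and 55.61 CPM in GMPs. Every eosinophil library stood above every GMP library, and the fitted log2 difference was 2.74 (adjusted p 0.0013, SE 0.276). Without bone marrow eosinophil library 3 it was 2.49 (adjusted p 7.69e-05). Neutrophil markers were also highest in that library, and their part in this difference was not tested. Junb overlaps Prdx2 on the opposite strand and the strand setting of the counting is not given, so reads of the pair cannot be told apart in the overlap. Prdx2 itself was at 133.6 to 236.5 CPM in bone marrow eosinophils, against 133.6 to 182.6 CPM in GMPs. Junb made up 89.17% to 97.56% of JUN family FPKM in bone marrow eosinophils, against 31.09% to 79.97% in GMPs. These shares rest on very low Jund, which held 0.3298% to 0.5506% in these 2 groups and 20.74% to 41.89% in the groups of the other tables. The cause of that gap was not tested.

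Jun and Fos differed widely between libraries of the same group. Jun had 79.72, 12.6 and 17.4 CPM in bone marrow eosinophils and 240.3, 191.0 and 25.02 CPM in GMPs (-2.05 on the log2 scale, SE 0.974, adjusted p 0.177). GMP library 3 lay within the range of the eosinophils, which set the groups' overlap. Jun passed only without bone marrow eosinophil library 1 (-3.38, adjusted p 0.0499), and over all alternatives its adjusted p ran from 0.0499 to 0.403. Fos had 231.6, 48.15 and 144.0 CPM in bone marrow eosinophils and 461.4, 375.1 and 55.86 CPM in GMPs (-1.07, SE 0.812, adjusted p 0.379), again with GMP library 3 inside the eosinophils' range. Fos made up most of FOS family FPKM, 90.33% to 97.36% in bone marrow eosinophils, against 91.22% to 97.75% in GMPs. Fosb had 3.561, 2.304 and 3.143 CPM in bone marrow eosinophils and 8.686, 14.52 and 1.278 CPM in GMPs (-1.44, adjusted p 0.249). Fosl2 had 13.01, 11.6 and 9.094 CPM in bone marrow eosinophils and 17.94, 17.88 and 14.0 CPM in GMPs. Those Fosl2 groups did not overlap, yet the gene missed the threshold (-0.56, adjusted p 0.202).

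Egr1 had 40.84, 6.759 and 10.83 CPM in bone marrow eosinophils and 10.01, 12.46 and 2.077 CPM in GMPs (1.25, SE 0.862, adjusted p 0.335). Only eosinophil library 1 lay above all GMP libraries, and without it the value was 0.06. Egr2 was at 0.1123 to 2.325 CPM in bone marrow eosinophils, against 0.2104 to 0.5127 CPM in GMPs, from 2 to 64 reads a library. Egr3 had 6, 2 and 0 reads in bone marrow eosinophils and 0, 0 and 1 read in GMPs and was not tested, and a count of 0 allows up to 3 reads in a library, by counting error only. Atf3 was at 3.307, 1.344 and 0.2807 CPM in bone marrow eosinophils and 0.6912, 0.7049 and 0.2876 CPM in GMPs (1.55, adjusted p 0.304), and passed without eosinophil library 3 (2.04, adjusted p 0.0495), against 0.0495 to 0.716 over all alternatives. Jund was low throughout, with 3.815, 1.382 and 4.042 CPM in bone marrow eosinophils and 1.052, 1.121 and 0.3835 CPM in GMPs, which did not overlap but missed the threshold (1.85, adjusted p 0.127). In the other tables, scaled on their own, Jund lay between 48.24 and 148.8 CPM.

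The wide spread was shared by several members. Between the libraries of 1 group the highest over the lowest level, with 0.1 CPM added, had a median of 4.801 over the 9 members tested in bone marrow eosinophils, against 2.001 over all genes, and 2.526 in GMPs, against 1.295 over all genes. A spread of at least 4-fold was seen in 5 of 9 members in bone marrow eosinophils (23.9% of all genes) and in 4 of 9 in GMPs (2.1% of all genes). Eosinophil library 1 had the highest level in 7 of 9 members, as in 36.5% of all genes. GMP library 3 had the lowest in 7 of 9, as in 35.8% of all genes, and in 27 of 34 other immediate early genes. Eosinophil library 1 was highest in 16 of those 34, as was eosinophil library 3. The summed CPM of the 13 heat shock genes did not follow this order. It was 4821, 6614 and 6154 in bone marrow eosinophil libraries 1 to 3, against 8803, 6923 and 8523 in GMP libraries 1 to 3. Abundant genes such as Hsp90ab1 weigh most in that sum. Of 11 heat shock genes tested, eosinophil library 1 was highest in 3 and lowest in 7, and GMP library 3 was highest in 3 and lowest in 4. GMP markers stood at 60770, 52370 and 62320 CPM in GMP libraries 1 to 3. The part of cell handling in these spreads was not tested.

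**Figure D3:**
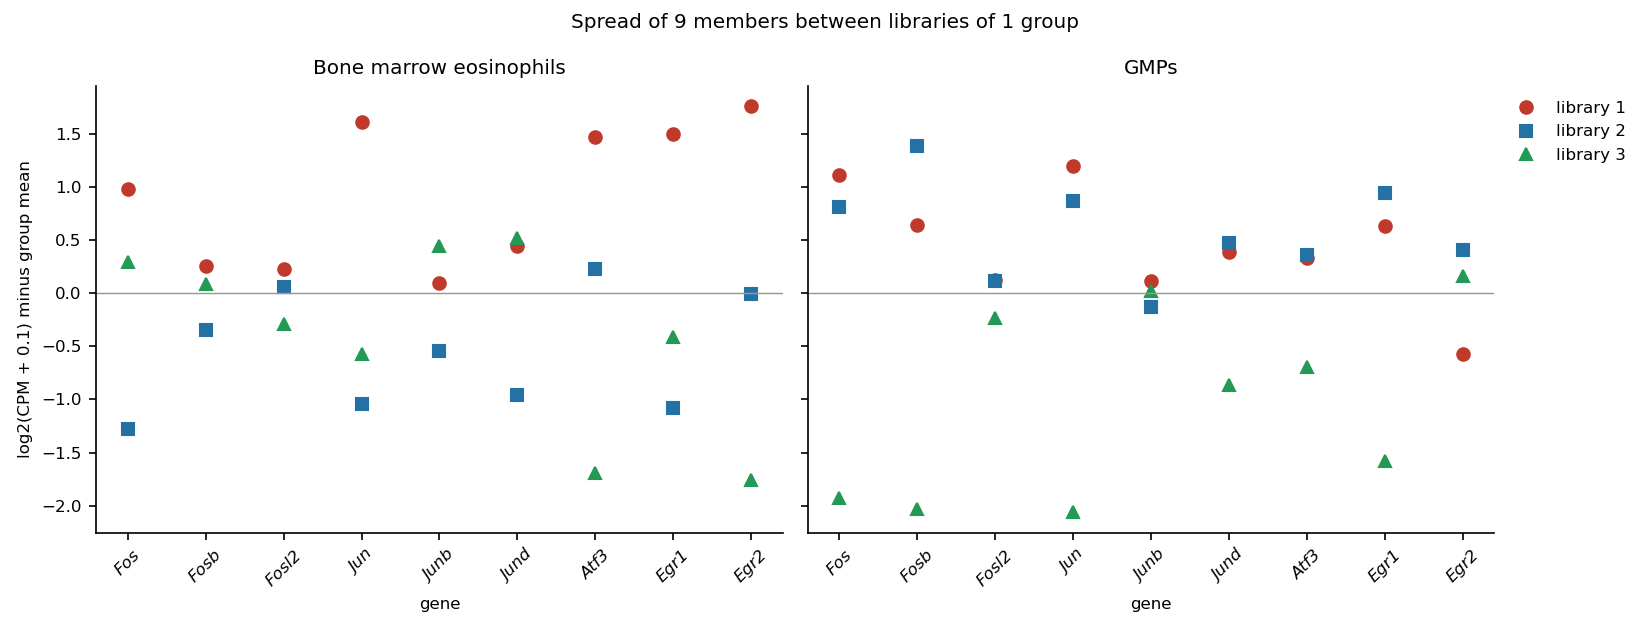
Level of 9 members in each library of bone marrow eosinophils (left) and GMPs (right), as log2(CPM + 0.1) minus the group's mean. In GMPs library 3 (triangles) was lowest for 7 of the 9, and in bone marrow eosinophils library 1 (circles) was highest for 7 of the 9.

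Among other genes of the pathway in bone marrow eosinophils against GMPs, 14 of 34 other immediate early genes were higher and 1 lower (median log2 fold change 1.12). Rgs1 (3.45), Ier5 (3.40), Zfp36l1 (3.37) and Plk2 (3.13) rose most, and Klf4, a factor of monocyte differentiation, fell by 3.22. Leaving out GMP library 1, 2 or 3 cut the higher calls to 2, 1 and 2, and the lower calls to 0. Without bone marrow eosinophil library 1, 2 or 3 there were 13, 10 and 18 higher and 1, 0 and 3 lower. Calls over all genes moved too, from 2413 of 12214 to 747 of 12636, 880 of 12572 and 974 of 12629 without GMP library 1, 2 or 3. Without bone marrow eosinophil library 3 they were 4623 of 12648. Among 10 AP-1 and MAF partners tested, Atf7, a relative of ATF2, was lower (-1.71). Of 23 upstream kinases and factors, Mapk3 (1.24) and Mrtfa (0.83) rose and 0 fell, against 1 higher and 2 lower with length and GC offsets, 3 and 3 without bone marrow eosinophil library 3, 3 and 1 without library 1, 0 and 1 without library 2, and no call in either direction without any one of the GMP libraries. Of 11 heat shock genes 0 were higher and 3 lower, Hsph1 (-1.27), Hspd1 (-1.05) and Hsp90ab1 (-0.84). Without bone marrow eosinophil library 3, 0 heat shock genes were higher and 4 lower. Nab1 and Nab2 were tested and not called.

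The BMDE comparisons ask how iron loading and iron depletion change eosinophils as they form. The 3 arms were fitted together, and the DFO and FAC comparisons share the 2 control libraries, so they are not independent. Jun was highest with DFO, lower in controls and lowest with FAC. Fos was highest with DFO. Jund and Egr2 were higher with FAC than with DFO. Fitted differences were under 1 on the log2 scale for all 9 members tested.

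Jun had 38.38, 33.12, 33.11 and 37.96 CPM with FAC and 66.13, 68.24 and 63.34 CPM with DFO, against 52.81 and 43.43 CPM in controls. None of the 3 groups overlapped. The log2 fold change was 0.45 for DFO against control (SE 0.11, adjusted p 0.0284), -0.43 for FAC against control (SE 0.103, adjusted p 0.04) and -0.89 for FAC against DFO (SE 0.091, adjusted p 6.38e-05). The call of FAC against DFO held in all 12 alternatives, at -0.92 to -0.74. Against control the calls were less firm: Jun passed in 6 of 11 alternatives with DFO and in 4 of 11 with FAC, with adjusted p-values up to 0.266 and 0.4. Jun made up 8.343% to 15.47% of JUN family FPKM with FAC and 24.98% to 26.14% with DFO, against 18.57% to 20.61% in controls.

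Fos had 18.48, 20.67, 20.36 and 19.07 CPM with FAC and 27.06, 24.0 and 24.4 CPM with DFO, against 17.62 and 19.08 CPM in controls. The DFO libraries lay above all others, and those of FAC and control overlapped. Fos rose with DFO (0.45 against control, SE 0.096, adjusted p 0.0171) and was lower with FAC than with DFO (-0.36, SE 0.079, adjusted p 0.00539). The DFO call held in 7 of 11 alternatives, and ended without control library 1 (0.40, adjusted p 0.164) or 2 (0.51, adjusted p 0.0948) and without DFO library 9 (0.40, adjusted p 0.0642) or 12 (0.48, adjusted p 0.0507). For FAC against control the value was 0.10, and its highest adjusted p over the alternatives was 0.981. Fosl2 had 62.07, 51.86, 63.23 and 64.68 CPM with FAC and 69.61, 74.45 and 74.8 CPM with DFO, against 68.88 and 58.22 CPM in controls. FAC and DFO libraries did not overlap, and FAC against DFO passed (-0.27, adjusted p 0.0387). That call ended with length and GC offsets (-0.07, adjusted p 0.398) and held in 6 of 12 alternatives. Fosb had 3 to 10 reads in each library and was not tested. Fos and Fosl2 shared the FOS family's FPKM about equally in all 3 arms, with Fos at 47.07% to 54.48% with FAC and 49.3% to 54.02% with DFO, against 43.49% to 49.81% in controls.

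Jund had 86.48, 148.8, 64.67 and 85.74 CPM with FAC and 49.08, 50.45 and 48.24 CPM with DFO, against 70.78 and 64.24 CPM in controls. Every FAC library was above every DFO library, and FAC library 6 was far above the other 3. FAC against DFO gave 0.97 (SE 0.238, adjusted p 0.00897), and 0.70 without FAC library 6 (adjusted p 7.61e-06). DFO libraries were below both controls, but DFO against control missed the threshold (-0.45, adjusted p 0.346). Without FAC library 6 in the shared fit, an alternative added after the data had been seen, it passed (-0.46, adjusted p 0.00224), against adjusted p-values of 9.87e-07 to 0.685 over all alternatives. Jund overlaps the antisense gene Gm11175, and without a known strand setting their reads cannot be told apart. Junb had 73.45, 106.7, 58.44 and 69.07 CPM with FAC and 77.28, 73.38 and 67.88 CPM with DFO, against 66.82 and 63.78 CPM in controls. It was not called in any of the 3 comparisons in the shared fit, and FAC against DFO was 0.08 with FAC library 6 and -0.11 without it.

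Egr2 had 3.968, 3.989, 2.874 and 4.339 CPM with FAC and 2.345, 3.02 and 1.703 CPM with DFO, against 4.248 and 4.126 CPM in controls. DFO libraries were below both controls and overlapped the FAC libraries. FAC against DFO passed (0.69, adjusted p 0.0234) from 30 to 76 reads a library, and in 9 of 12 alternatives. DFO against control missed (-0.83, adjusted p 0.057), and passed without FAC library 6 (adjusted p 0.00901). Egr1 had 9.773, 12.51, 11.14 and 11.76 CPM with FAC and 9.438, 9.341 and 7.491 CPM with DFO, against 6.601 and 8.939 CPM in controls. All FAC libraries lay above all others, but Egr1 was not called, at 0.54 against control (adjusted p 0.0873) and 0.37 against DFO (adjusted p 0.0541). Without FAC library 6 both passed, at 0.50 (adjusted p 0.0231) and 0.33 (adjusted p 0.0323), against adjusted p-values of 0.0231 to 0.52 and 0.0166 to 0.198 over all alternatives. Egr3 had 6.397, 3.929, 5.928 and 5.252 CPM with FAC and 5.205, 6.097 and 5.959 CPM with DFO, against 7.634 and 7.22 CPM in controls. Both treated arms were below both controls and Egr3 was not called. Atf3 had 27.19, 34.94, 22.04 and 25.75 CPM with FAC and 21.85, 23.44 and 22.36 CPM with DFO, against 20.49 and 21.26 CPM in controls. It was not called, but without FAC library 6 it passed in FAC against control (0.27, adjusted p 0.0451, against 0.0451 to 0.549 over all alternatives).

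Counted over members, 2 of 9 tested were called in DFO against control, both higher, where 11.6% of all genes were called, 6.46% higher and 5.12% lower. In FAC against control 1 of 9 was called, lower, where 6.04% of all 12607 genes were called, 1.76% higher and 4.28% lower. FAC against DFO gave 5 of 9, 2 higher and 3 lower, where 48.2% of all genes were called, 23.5% higher and 24.8% lower. The member medians were 0.16, 0.10 and 0.08, and those of all genes 0.00, -0.02 and -0.01, in the same order. The split of all FAC against control calls was 222 higher and 539 lower, against 449 and 520 with length and GC offsets and 554 and 762 with DESeq2. Without FAC library 6, DFO against control had 6 of 9 members called, Fos, Fosl2 and Jun higher and Jund, Egr2 and Egr3 lower, where 39.0% of all genes were called, 18.9% higher and 20.2% lower. FAC against control then had 3 of 9, Atf3 and Egr1 higher and Jun lower, where 21.7% of all genes were called, 9.98% higher and 11.7% lower. FAC against DFO then had 6 of 9, Jund, Egr1 and Egr2 higher and Fos, Fosl2 and Jun lower, where 62.5% of all genes were called, 31.9% higher and 30.7% lower. Groups did not overlap for 8, 4 and 5 of 9 members, and for 65.7%, 36.1% and 55.7% of all genes.

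**Figure D4:**
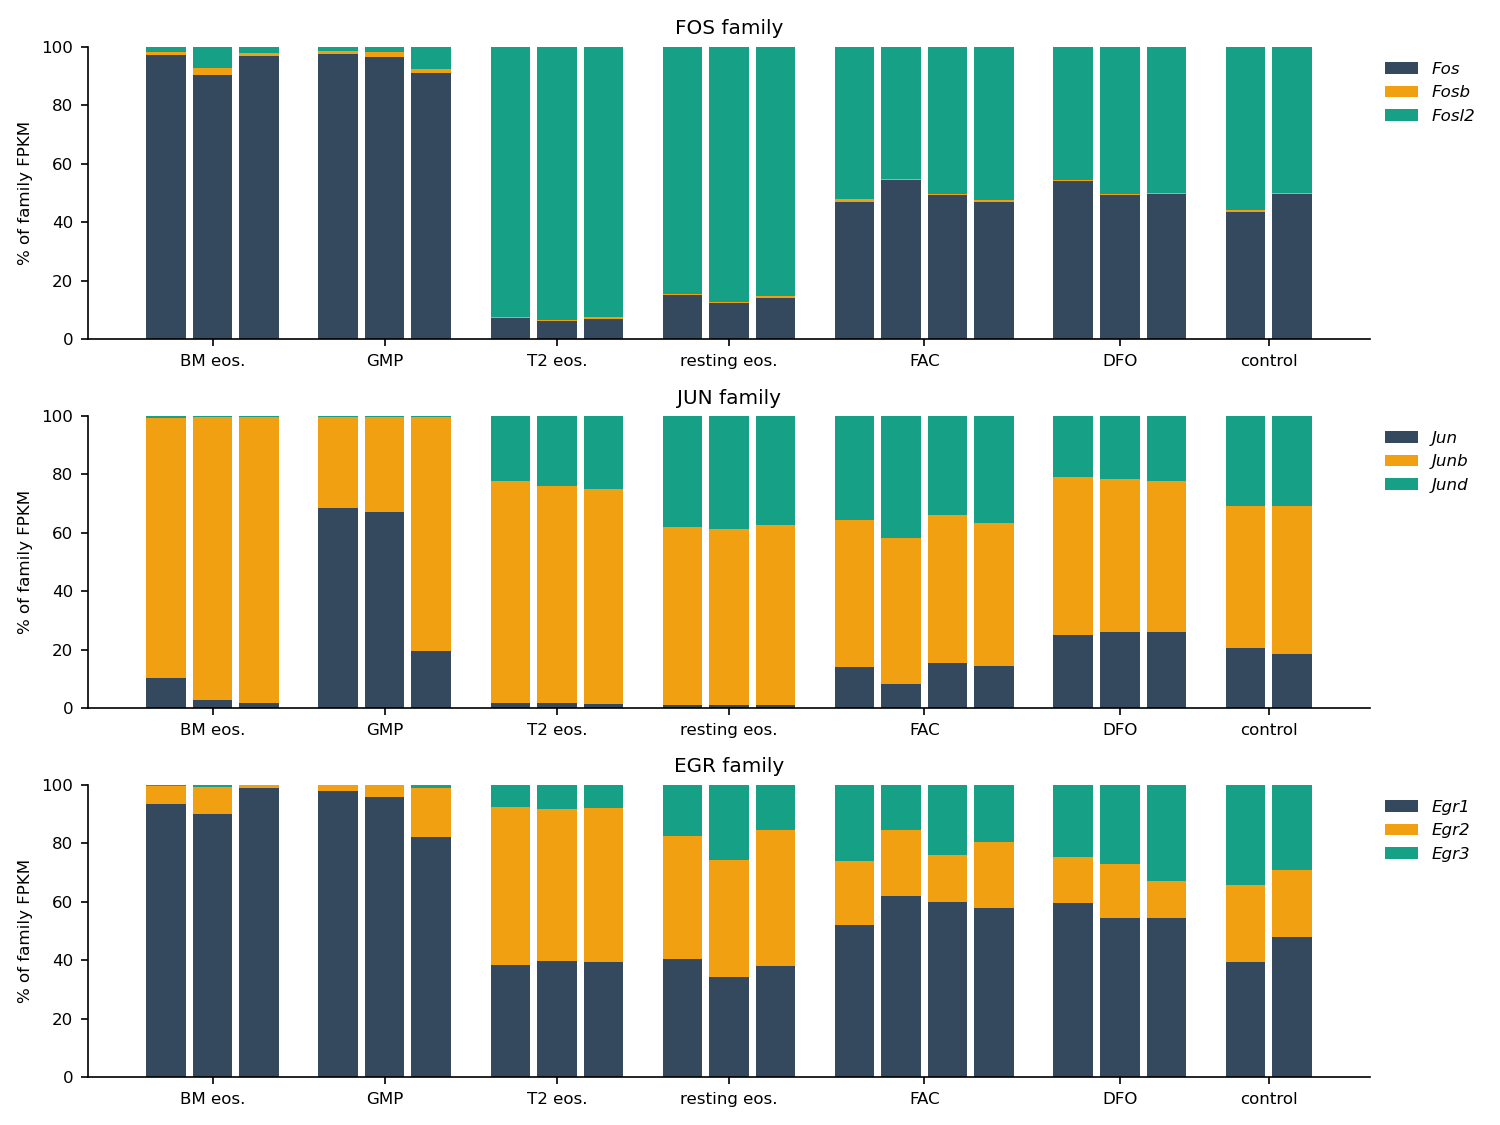
Share of each member in its family's summed FPKM, 1 bar per library, for the FOS, JUN and EGR families. Fos led in bone marrow eosinophils and GMPs (at least 90.33%), Fosl2 in T2 and resting eosinophils (at least 84.41%), and the 2 were near equal in BMDEs. Jund held at most 0.5506% of its family in bone marrow eosinophils and GMPs and at least 20.74% in all other groups, which limits comparison of JUN shares between tables.

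Other immediate early genes in BMDEs were lower with FAC than with DFO in 21 of 38 tested and higher in 7 (median log2 fold change -0.30, against -0.01 over all genes). Nr4a3 (-1.24), an orphan nuclear receptor, Sik1 (-1.18), Klf4 (-0.95) and Phlda1 (-0.80) were most lower, and Gadd45a (1.3), Ier3 (0.73), Plk2 (0.48) and Dusp1 (0.44) most higher. Nr4a3 was at 16.03 ± 1.498 CPM with FAC (SD, n = 4) and 37.79 ± 1.059 CPM with DFO (n = 3), against 23.28 ± 2.161 CPM in controls (n = 2). DFO against control had 7 higher and 1 lower, Myc (-0.43), and FAC against control 0 higher and 4 lower, Sik1, Nr4a3, Klf4 and Zfp36l1. Without FAC library 6 these counts were 23 higher and 4 lower in DFO against control, 4 and 7 in FAC against control, and 8 and 25 in FAC against DFO. Of 23 upstream kinases and factors, 3 were higher and 8 lower with FAC than with DFO, Map3k8 by -1.16. Without FAC library 6, 5 were higher and 10 lower. Against control, Map3k8 fell with FAC (-0.65) and rose with DFO (0.51). Mapk7 (0.44), Elk3 (0.42) and Mrtfa (0.37) also rose with DFO. Of 13 AP-1 and MAF partners 3 were higher and 2 lower with FAC than with DFO, with Atf4, a factor of the integrated stress response, at 0.99 and Maf at -0.83. Of 12 heat shock genes 8 were higher with FAC than with DFO, led by Bag3 (0.56), and 2 lower, Hspa1a (-1.11) and Dnajb4 (-0.39). Nab1 was lower with FAC than with DFO (-0.54). Eosinophil markers summed to 48250 to 56760 CPM with FAC and 16530 to 19470 CPM with DFO, against 36550 to 37240 CPM in controls, and neutrophil markers to 6356 to 9268, 16490 to 18510 and 9033 to 10750 CPM in the same order. GMP markers summed to 746.5 to 839.4 CPM with FAC and 1576 to 1665 CPM with DFO, against 1049 to 1062 CPM in controls. With FAC against DFO, 8 of 8 GMP markers were lower, 9 of 10 neutrophil markers lower and 1 higher, and 8 of 8 eosinophil markers higher. The GMP marker sums had the order of Jun in these arms and the eosinophil marker sums the reverse order. Neutrophil marker sums were highest with DFO, as Jun was, with FAC and control overlapping. The part of these lists in the members' differences was not tested.

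Across the 7 groups, whose tables were scaled separately, the order of levels differed between members and is a description. Jund was at 0.3835 to 4.042 CPM in GMPs and bone marrow eosinophils and at 48.24 to 148.8 CPM in all other groups. The cause of that gap was not tested, and it limits comparison of levels between tables. Fos was highest in GMPs and bone marrow eosinophils, followed by the BMDE arms at 17.62 to 27.06 CPM and resting eosinophils, and lowest in T2 eosinophils. Controls overlapped both FAC BMDEs and resting eosinophils. Fosl2 was highest in T2 and resting eosinophils, which overlapped, at intermediate levels in BMDEs and lowest in GMPs and then bone marrow eosinophils. Jun was lowest at rest and highest in GMPs, which overlapped DFO BMDEs. Junb was highest in bone marrow eosinophils, whose range overlapped T2 eosinophils, and lowest in GMPs. Egr1, Egr2 and Egr3 were highest in T2 eosinophils, apart from all other groups, and Atf3 was highest in FAC BMDEs, which overlapped T2 eosinophils.

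Genes whose pattern was most like a member were named by Pearson's r over the 21 libraries, on log2(CPM + 1) centred on each table's mean, among 10286 genes tested in all 3 tables. The libraries share their table, group and depth, so r is a description with no test. For Fos they were Zfp36l2 (0.86), an mRNA-decay factor, Ddx5 (0.80), an RNA helicase, and Cplane1 (0.74). For Jun they were Ccnl1 (0.92), Safb2 (0.90) and Cpsf7 (0.87). Junb had Spic (0.98), Gimap1 (0.97) and Ncf4 (0.97), and Egr1 had Lpl (0.96), lipoprotein lipase, Ccl4 (0.96), a chemokine, and Pgs1 (0.96). With 0.1 added in place of 1, the names for Fos were the same, and those that changed were Nlrp1b (0.88) for Cpsf7 beside Jun, Vasp (0.97) for Spic beside Junb and Ccl3 (0.96) for Pgs1 beside Egr1. Among members, Egr1 was close to Atf3 (0.94) and Egr2 (0.92), Fos had 0.65 with Jun and -0.07 with Egr1, and Junb had -0.33 with Fos.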

How the data were processed

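The authors deposited 3 tables made from poly(A) RNA libraries, with raw and length-scaled columns per library. The columns named read counts in the tables of marrow cells and of BMDEs hold expected counts per gene, per the file headers and their values, and were rounded to whole numbers here. The deposited table of T2 and resting eosinophils holds whole-number counts. The authors' FPKM columns are scaled for library size and gene length, per the file headers. The submitters' processing notes name RSEM, StringTie 1.3.1, HISAT2, Bowtie2 2.2.8, fastp 0.18.0 and the mm10 build, and which of them made a column, and with which strand setting, is not given in the sources used here. In all, 15 TPM columns were not used.

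Each table was fitted on its own with edgeR 4.0.16 in R 4.3.3 (TMM factors, filterByExpr, quasi-likelihood test, Benjamini-Hochberg adjustment over all genes tested, called at an adjusted p of 0.05). The 3 BMDE arms share 1 fit. The procedure was tested on simulated counts. Alternatives were DESeq2 1.42.0, upper-quartile factors, no filter on low counts, each library left out, the replicate number as a block, only the 2 arms compared and, added after the data had been seen, length and GC offsets and DFO against control without FAC library 6. Members and gene lists were chosen with earlier results of these data known. All 10 members are named, and from each list up to 4 called genes per direction with the largest change. Of the identifiers, 15899 of 15945, 22219 of 22274 and 16596 of 16645 matched the mouse annotation. No pair of libraries agreed closely enough to be 1 library deposited under 2 names. Intervals from counts cover counting error only. A result of the AP-1 and MAF partner list is not reported here.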

Additional observations from a re-analysis of the deposited data

How the results depend on the processing

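With T2 cytokines the 7 called members were called under all 11 alternatives (7 to 8 members when a library was left out), and Junb was called in bone marrow eosinophils against GMPs under all 11, at adjusted p-values of 2.15e-17 to 0.0152. Members called there were 1, and 1 to 2 when a library was left out. DFO against control had 2 called members, 7 with only the 2 arms compared and 0 to 6 when a library was left out (6 without FAC library 6). FAC against control had 1, then 2 with DESeq2, 0 with only the 2 arms, 0 with length and GC offsets and 0 to 3 when a library was left out (3 without FAC library 6). FAC against DFO had 5, and 3 to 6 when a library was left out, with 3 without DFO library 9 or 12. Calls over all genes were then 4669 of 12554 and 4361 of 12557, against 6080 of 12607 with all libraries. For DFO against control they were 5982 of 12469 with only the 2 arms, against 1460 of 12607. The cause of these shifts was not tested.

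The sign turned for Fosl2 in T2 eosinophils (-0.08 with upper-quartile factors), Fosl2 in FAC against control (0.06 with length and GC offsets, -0.19 to 0.05 with a library left out), Egr3 in FAC against DFO (0.14 with those offsets, -0.17 to 0.04), Junb in FAC against DFO (-0.11 to 0.22), Egr1 in DFO against control (-0.03 to 0.41) and Egr2 in bone marrow eosinophils against GMPs (-0.04 to 1.94). None of these 6 was called. Of 99 values each, 96, 95, 78 and 87 kept direction and side of the threshold for bone marrow eosinophils, T2, DFO against control and FAC against control, as did 90 of 108 for FAC against DFO.

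Over all genes, calls in bone marrow eosinophils against GMPs were 2413, then 3867 with DESeq2 and 747 to 4623 with a library left out. DFO against control had 1460, then 5982 with only the 2 arms and 217 to 4899 with a library left out. FAC against control had 761, then 1316 with DESeq2, 116 with only the 2 arms and 76 to 2728 with a library left out. FAC against DFO had 6080, then 5405 with only the 2 arms and 4250 to 7855 with a library left out. T2 against resting eosinophils had 8632, and 8300 to 8520 with a library left out.

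With the replicate number as a block, Junb in bone marrow eosinophils against GMPs was 2.69 (edgeR adjusted p 0.00251), the numbers of called members stayed at 1 and 7, and calls over all genes were 1419 and 8498. Same-numbered libraries did not deviate together (correlations of 0.01, 0.00 and 0.12 in the marrow table and of -0.01, -0.02 and 0.03 in the T2 table), so the numbers are not taken as pairs. Fosb, Egr2 and Egr3 rest on few reads in several groups, which limits what their levels can show.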

Other observations

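Markers of other cell types also differed between the groups, and their part in the members' values was not tested. In bone marrow eosinophils the 8 erythroid markers summed to 1088 to 2320 CPM, against 13.07 to 17.34 CPM in GMPs. The 8 B cell markers summed to 326.9 to 687.6 CPM in bone marrow eosinophils, against 40.53 to 57.11 CPM in GMPs, and the T and NK cell markers to 813.4 to 1070 CPM, against 252.8 to 395.7 CPM in GMPs. All these ranges lay apart. Mast cell and basophil markers stood at 2085 to 3197 CPM in bone marrow eosinophils, against 349.4 to 623.5 CPM in GMPs. In T2 eosinophils their sum was 476.5 to 524.2 CPM, against 97.21 to 107.3 CPM in resting eosinophils, but of the 7 markers 2 were higher and 4 lower (median log2 fold change -1.27). Monocyte and macrophage markers overlapped between bone marrow eosinophils (3161 to 4805 CPM) and GMPs (4231 to 5058 CPM) in their sum, while 4 of the 9 tested were higher and 4 lower.

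The summed level of the 10 members was 758.0, 328.5 and 673.1 CPM in bone marrow eosinophils and 799.8, 663.3 and 155.0 CPM in GMPs. The lowest sum of the 6 was thus that of GMP library 3.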
